A study of Mus musculus with 2 samples.

Results

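The cytosolic ribosomal protein genes were taken as the protein-coding rows of the count table whose symbol follows the Rpl, Rps or Rplp pattern, together with *Rpsa*, and whose mean was at least 10 counts over all 18 libraries. The symbol matched 84 rows, and 79 of the 31053 genes in the table were kept, 32 for the small subunit and 47 for the large subunit, of which 3 form its stalk. The members were chosen by their symbols and by the mean count over all libraries, so their levels are given as a description. The rows nearest to the limit on the kept side were *Rps6* (11.1 counts), *Rps27* (13.1) and *Rpl23a* (14.6), and those on the other side were *Rpl24* (9.56), *Rpl28* (8.17) and *Rpl39l* (0.222). *Rpl10l* (0.111) and *Rpl3l* (0) were left out too.

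Organoids were grown from small intestinal crypts of wild-type C57BL/6J mice, a different mouse in each of 2 experiments, named Exp2 and Exp1 here. The cultures had EGF (50 ng/ml), Noggin and R-spondin 1 for 3 days and no EGF ligand for the next 24 h. In the last 24 h they received NRG1, EREG or EGF at 100 ng/ml, and EGF-treated organoids served as the control. Each ligand had 3 libraries in each experiment. All groups share the earlier EGF culture, and none was left without a ligand. Library 2 of every group was sequenced in a pool called S4 (6 libraries) and libraries 1 and 3 in a pool called S3 (12 libraries). The labels do not say whether the 3 libraries of a group came from different cultures, so the p-values cover the spread between libraries, which may be technical. Mouse and experiment cannot be told apart.

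Each ribosome holds a single copy of almost every ribosomal protein, so cells make these proteins in matched amounts from many unlinked genes. Most of these mRNAs begin with a run of pyrimidines that opens with a cytosine, the 5′ terminal oligopyrimidine (TOP) tract. Through this tract, mTORC1, a kinase complex that acts downstream of growth factor receptors, sets how well the mRNAs are translated. In the intestinal crypt, stem and progenitor cells divide rapidly and make many ribosomes, while differentiated cells make fewer. Mammalian genomes also hold many processed pseudogenes of these genes, which look like spliced mRNA and complicate read counting. These data are RNA counts and hold no measure of translation.

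The starts of 9 members are shown to let the TOP tract be seen at the annotated start in members that the results below turn on and in 2 paralogue pairs. Of the 79 members, 59 were matched in the RefSeq table of GRCm38.p6 starts. Each line gives 8 bases before the annotated start and 20 from it, 5′ to 3′ on the gene's strand, and capitals mark a tract of at least 5 bases that opens with C and goes on with C or T, within 5 bases of the start.
Rpl13a, chr7:45128726-45128753 (minus strand): tgcgacaagaCCTCCTCCTTTCCCaggc
Rps15a, chr7:118116128-118116155 (minus strand): tctgccatCTTCCCTCgccggtgagtga
Rps21, chr2:180257371-180257398 (plus strand): gacccgCCCTCCTgcccaatagtgctgc
Rps10, chr17:27635225-27635252 (minus strand): gcacgCCCCTTCCTTTCCagcctccgcc
Rpl35a, chr16:33056474-33056501 (plus strand): ttgCCTTCCTCTTTCCgccatcttggcg
Rpl22, chr4:152324428-152324455 (plus strand): tctggaatgttccagctcccactgacag
Rpl22l1, chr3:28805500-28805527 (plus strand): gcaagcccgttCTCTTCCCacggctgca
Rps27, chr3:90213629-90213656 (minus strand): ctttcgCTCCTTTCCggcggtgacgacc
Rps27l, chr9:66946078-66946105 (plus strand): tccccgccgCCTCTatcccggaagttgc

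For 12 of the 59 matched members (20.3%) the base at an annotated start was C and at least the next 4 were C or T, whether or not the run began before it, against 2.92% of the other tested genes in the table. Within 5 bases of a start, 28 members had such a run (47.5%), against 23.9% of the other tested genes. In *Rps15a* the 8-base tract opened at the annotated start itself, and in *Rpl13a* a 14-base tract opened 2 bases after it. The annotated starts of *Rpl22* held no tract by this definition. A match is a description of the letters at an annotated start, which can lie some bases away from the start used in these cells.

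The libraries held between 1311420 and 1891243 unique molecules (UMIs), with a median of 1616164.5. All 18 epithelial markers, among them *Epcam*, *Vil1*, *Lgr5* and *Lyz1*, had counts in every library and took 2.00% to 2.85% of UMIs. Of 20 markers of other cells, 7, among them *Adgre1*, *Des*, *Cdh5*, *Cd3e*, *Lum* and *Hba-a1*, had no count and only *Acta2* and *Vim* were in every library, and together the 20 took between 0.00132% and 0.00274% of UMIs. In these bulk samples, fewer cells of a type and less RNA per cell cannot be told apart. 3 libraries stood apart in the ribosomal protein genes. EREG libraries 1 and 2 of Exp2 both lay above EREG library 3 for 59 members (74.7%, against 35.0% of all tested genes) and both above every EGF library of Exp2 for 46 members (58.2%, against 14.4%). EREG library 1 of Exp1 lay below every other library of Exp1 for 27 members (34.2%, against 12.6%). In the sample sheet, NRG1 library 3 and EREG library 3 of Exp2 are listed with a tube and the other 16 with a plate well. For most comparisons that rest on these EREG libraries, values are given with and without them. Where EREG library 3 is the only EREG library of Exp2 left in a fit of Exp2, effect sizes are given without counts.

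The members differed widely in mean UMI count, and 35 of them had 1000 or more. Each UMI stands for a molecule primed at its poly(A) tail, so these counts are not divided by length. *Rpl8* (9613), *Rpl32* (8666), *Rps14* (8582) and *Rps3* (7990) were among the highest. The normalized counts of *Rpl32* ranged between 6619 and 11264 over the 18 libraries, with the highest value in EREG library 1 of Exp2. At the other end 19 members had fewer than 100 counts and together held 0.648% of member UMIs, with *Rps6* (11.1) the lowest. *Rps6*, whose protein is the classic target of S6 kinase, was followed from the low end by *Rps27*, *Rpl23a*, *Rpl10* (16.1) and *Rps29* (24.9).

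Members with more shared sequence had lower counts. Over the last 500 nucleotides of its transcripts, a member shared a median of 44.2% of its 61-nucleotide windows with transcripts of other genes, 69 of the 79 shared more than 10%, and 6, among them *Rpl4*, *Rps20*, *Rpl37*, *Rpl27a* and *Rpl12*, shared none. The 23 members that shared under 25% had a median of 2064 counts, the 31 that shared 25% to 60% had 490.1, and the 25 that shared 60% or more had 220 (219.7 before rounding). Over the 79 members, Spearman's correlation of the shared percentage with the mean count was −0.55, a description over genes that share libraries and an aligner.

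For several members a near copy held more UMIs than the gene itself. *Rpl10*, whose protein joins late in the assembly of the large subunit, had a mean of 16.1 counts while *Rpl10-ps3* had 1083. *Rps27* had 13.1 and its retrotransposed copy *Rps27rt* 291. *Rpl35* had 370 (369.6) and *Gm2000*, which shared 71.6% of the windows of *Rpl35*, had 1864. *Rpl9* (49.1) and *Rpl9-ps6* (188), and *Rpl27* (38.1) and *Rpl27-ps3* (166), stood in the same order. The counts of such members are uncertain, since molecules of the gene and of its copy could not always be told apart. *Rack1*, a small-subunit scaffold protein outside the symbol rule, shared no window and averaged 6826 counts, while *Fau*, whose protein is made as a fusion to a ubiquitin-like domain, averaged 140 (139.8).

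**Figure D1:**
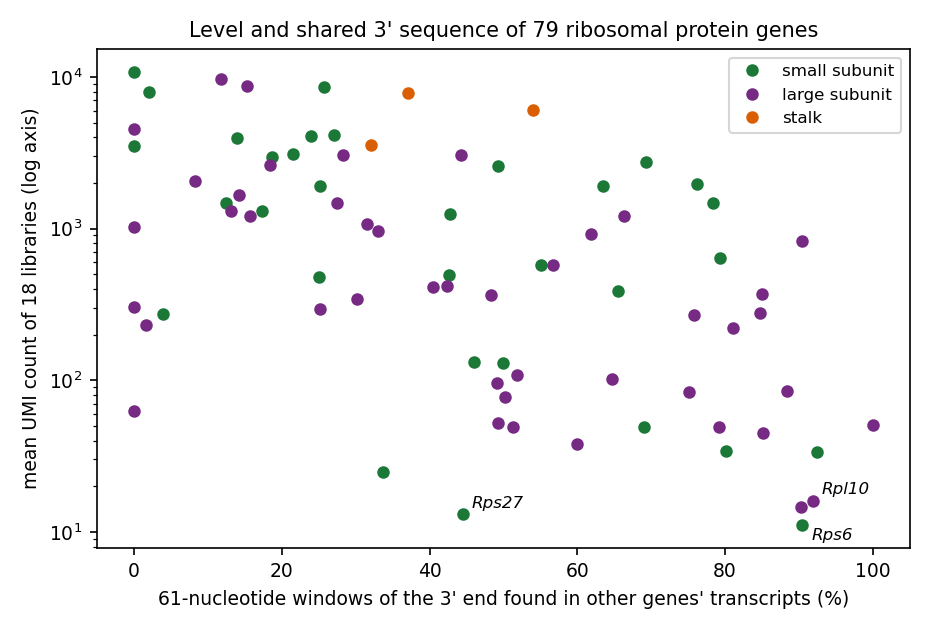
Mean UMI count over 18 libraries (log axis) of each of the 79 ribosomal protein genes against the percentage of its 3′ windows found in transcripts of other genes, coloured by subunit. *Rps6*, *Rps27* and *Rpl10* lie at the bottom (11.1 to 16.1), and the 25 members that share 60% or more have a median of 219.7 counts, against 2064 for the 23 that share under 25%.

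Added up, the 79 members took between 7.15% and 10.9% of the UMIs of a library. In Exp2 they took 8.31%, 8.15% (8.145) and 7.97% in NRG1 libraries, 10.9%, 10.5% (10.55) and 8.94% in EREG libraries, and 8.40%, 8.90% and 8.49% in EGF libraries. EREG libraries 1 and 2 were the highest of the series and EREG library 3 lay just above the EGF range. The means were 8.14% ± 0.169 with NRG1, 10.1% ± 1.06 with EREG and 8.60% ± 0.267 with EGF (SD, n = 3 each). In Exp1 the means were 7.71% ± 0.147 with NRG1, 7.83% ± 0.608 with EREG and 7.88% ± 0.108 with EGF (SD, n = 3 each). There EREG library 1 was lowest at 7.15% and EREG library 3 highest at 8.31%, so EREG had the widest spread in both experiments. Both subunits showed this: in EREG libraries of Exp2 the small-subunit genes took 5.05% ± 0.567 and the large-subunit genes 5.09% ± 0.496, against 4.29% ± 0.214 and 4.31% ± 0.0534 with EGF. Mitochondrially encoded RNAs took 0.799%, 0.748% and 0.637% in the same EREG libraries and between 0.596% and 0.604% in EGF libraries of Exp2, and their part in these differences was not tested.

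**Figure D2:**
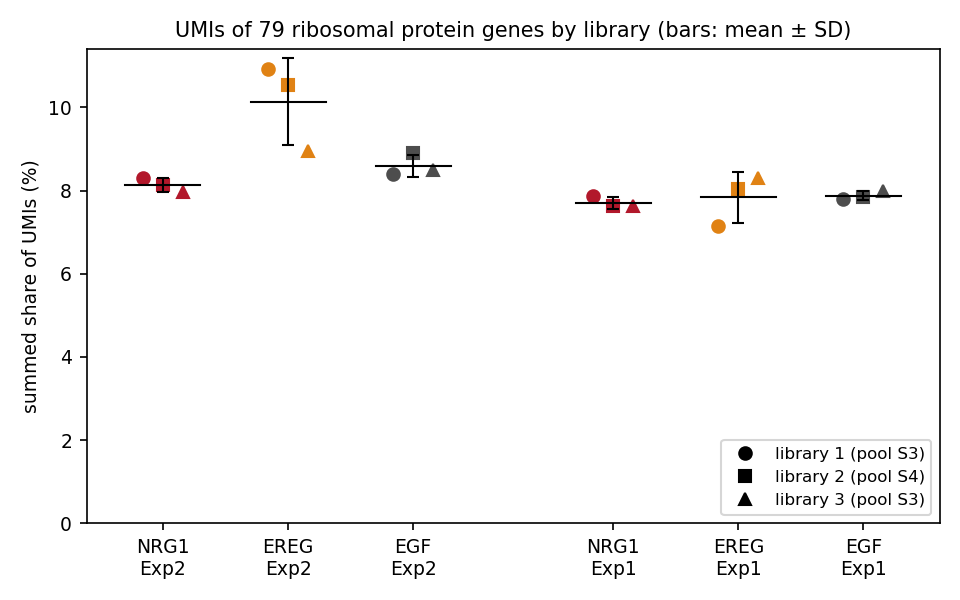
Summed share of UMIs (%) of the 79 ribosomal protein genes in each of the 18 libraries, by ligand and experiment, with the mean and SD of 3 libraries. EREG libraries 1 and 2 of Exp2 (10.9% and 10.5%) stand above the other 16, which lie between 7.15% and 8.94%.

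NRG1 against EGF, the main comparison of the study, changed few ribosomal protein genes. Over both experiments 3 of the 79 members passed at an adjusted p under 0.1 (edgeR's quasi-likelihood test with Benjamini-Hochberg adjustment over 12159 genes), 2 higher (*Rpl13a* and *Rps2*) and 1 lower with NRG1. That is 3.80% of the members, while 11.3% of all tested genes passed, 5.91% higher and 5.39% lower. With TMM factors computed without the members and their pseudogenes, 2 members were higher and 2 lower. Without EREG libraries 1 and 2 of Exp2, a setting chosen after the values were seen, more members were lower. Among them were *Rps4x* (−0.18), *Rps19* (−0.16) and *Rpl37* (−0.17). The share of all genes is not given for that setting. The median log2 fold change of the members was −0.03, beside −0.01 for all tested genes, and the whole range was −0.29 to 0.42 (−0.295 to 0.417).

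*Rpl13a* encodes a large-subunit protein that in human cells also leaves the ribosome to repress translation of inflammatory mRNAs. Its normalized count (UMI count scaled by TMM) was 498, 424 and 470.1 in NRG1 libraries and 360.4, 347 and 401 in EGF libraries of Exp2. In Exp1 it was 479, 438 and 494 with NRG1 and 356, 310.3 and 363 with EGF. Every NRG1 library lay above every EGF library of its experiment. The log2 fold change was 0.39 ± 0.08 (SE, edgeR adjusted p = 0.000298), with 0.33 in Exp2 (adjusted p = 0.0143) and 0.45 in Exp1 (adjusted p = 0.000254). *Rpl13a* shared 40.4% of its windows with other genes, and its copy *Rpl13a-ps1* is described with the sequencing pools below. Over both experiments the call held without any single library, but in Exp2 alone it was lost without EGF library 1 (0.25), NRG1 library 1 (0.29), EGF library 2 (0.30) or NRG1 library 3 (0.32).

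*Rps2* encodes a small-subunit protein near the mRNA entry channel. It had 1661, 1876 and 1594 normalized counts in NRG1 libraries and 1410, 1704 and 1478 in EGF libraries of Exp2. In Exp1 it had 1543, 1531 and 1402 with NRG1 and 1142, 1194 and 1176 with EGF. The groups were apart in Exp1 and overlapped in Exp2, where EGF library 2 lay above NRG1 libraries 1 and 3. The log2 fold change over both was 0.26 ± 0.073 (edgeR adjusted p = 0.0150), and *Rps2* shared 78.3% of its windows with other genes. Leaving out EREG library 1 of Exp2 or EGF library 3 of Exp1 raised the count of 3 members to 5.

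Within Exp2, 2 members passed between NRG1 and EGF (2.53%, against 9.3% of the tested genes, 5.6% higher and 3.7% lower), *Rpl13a* higher and 1 lower. This count was 4 without EREG library 1 or 3, 1 without NRG1 library 2 or 3, and 0 without NRG1 library 1 or EGF library 2. Without both EREG libraries 1 and 2, *Rpl22l1* (0.20), *Rpl7* (0.19) and *Rps2* (0.16) also passed as higher. *Rpl14* (−0.14), *Rps4x* (−0.15) and *Rpl37* (−0.21) also passed as lower. The share of all genes is not given for that setting. All NRG1 libraries lay above all EGF libraries for 4 members (11% of all genes did) and below for 3 (10.1% of all genes).

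Within Exp1, 10 members passed (12.7%, against 9.77% of the tested genes, 4.87% higher and 4.9% lower), 3 higher and 7 lower with NRG1. The higher were *Rpl13a* (0.45), *Rps2* (0.34) and *Rpl8* (0.23), the last of which encodes a protein at the catalytic centre of the large subunit. *Rpl8* had 9484, 8183 and 7872 normalized counts with NRG1 and 7602, 6720 and 7353 with EGF, with no overlap. Among the lower were *Rps7* (−0.28), *Rpl35* (−0.28), *Rps19* (−0.25), *Rps14* (−0.21), *Rps4x* (−0.21) and *Rps20* (−0.20). *Rps19*, the gene most often mutated in human Diamond-Blackfan anaemia, had 3678, 3106 and 3139 with NRG1 and 3845, 3902 and 4008 with EGF, again with no overlap. *Rps19* lost its call without library 2 or 3 of either ligand (−0.18 to −0.24), and *Rpl8* without library 2 of either ligand or EGF library 1 (0.21 to 0.23). NRG1 libraries lay above all EGF libraries for 7 members and below for 7 (10% and 10.9% of all genes). The count was 5 without EGF library 1, EREG library 2, EGF library 3 or NRG1 library 3, and 3 without EGF library 2 or NRG1 library 2. With DESeq2's size factors the 3 and 7 became 3 and 4.

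Tested as an interaction in edgeR, the NRG1 effect differed between Exp2 and Exp1 for no member, while 1.44% of all genes passed, 0.707% upward and 0.732% downward in Exp2, 3 members had an unadjusted p under 0.05 and DESeq2 called 0. A difference was called for 1 member without EGF library 2 of Exp1, EREG library 3 of Exp2 or NRG1 library 3 of Exp2. *Rpl13a* was the only member called between NRG1 and EGF in both experiments. Its log2 fold change over both experiments stayed between 0.32 and 0.42 under the alternatives tried, and it lost its call only in the 6 libraries of pool S4 alone (0.40, adjusted p = 0.199).

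EREG and EGF both act through the EGF receptor, and over both experiments no ribosomal protein gene passed between them. By edgeR 0 of 79 members passed, as did 0.00822% of all tested genes, 17 members had an unadjusted p under 0.05 and DESeq2 called 0. The median log2 fold change was 0.11, with 68 of the 79 above 0, beside 0.00 for all genes (0.00240). Without EREG library 1 of Exp1, the library with low values, 6 members passed, all higher with EREG. The share of all genes is not given for that setting, so this count cannot be set against it.

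The experiments differed in what they showed. In Exp2, 27 members passed and all 27 were higher with EREG, 34.2% of the members against 3% of all tested genes in either direction, 1.21% higher and 1.79% lower. The median log2 fold change was 0.24, beside −0.01 for all genes, and 72 of the 79 were above 0. The 27 comprised 14 of 32 small-subunit and 13 of 47 large-subunit genes. All EREG libraries lay above all EGF libraries for 17 members and below for 0 (6.78% and 7.76% of all genes). In Exp1 no member passed (0.0164% of all genes did, 3 members had an unadjusted p under 0.05 by edgeR and DESeq2 called 0), the median was −0.03 and 29 were above 0. There the EREG libraries lay above all EGF libraries for 2 members and below for 2 (4.08% and 4.7% of all genes).

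All 3 genes of the stalk, whose proteins recruit elongation factors to the ribosome, passed in Exp2. *Rplp1* had 9590, 8046 and 6432 normalized counts with EREG and 5698, 5958 and 5692 with EGF in Exp2 (log2 fold change 0.45 ± 0.069, edgeR adjusted p = 1.82e-07). *Rplp0* had 11944, 11421 and 8333 with EREG and 7638, 8679 and 8032 with EGF (0.37, adjusted p = 4.82e-05). *Rplp2* had 4696, 4586 and 3652 with EREG and 3463, 3745 and 3358 with EGF (0.28). EREG library 1 was the highest for each, and EREG library 3 was the lowest of its group and lay below EGF library 2 for *Rplp0* and *Rplp2*.

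Among the small-subunit genes, *Rps21* had 2240, 1557 and 1363 normalized counts with EREG and 1311, 1129 and 1244 with EGF in Exp2 (log2 fold change 0.46 ± 0.079, edgeR adjusted p = 5.74e-06). *Rps15a* had 4719, 3811 and 3209 with EREG and 3078, 2841 and 2828 with EGF (0.41 ± 0.072, adjusted p = 1.28e-05). *Rpsa*, whose protein also acts as a laminin receptor, had 859, 580 (579.5) and 602 with EREG and 501, 421 and 506 with EGF (0.50 ± 0.09, adjusted p = 1.88e-05). For these genes the groups did not overlap, and EREG library 1 stood highest. *Rps10* (0.37), *Rps24* (0.33), *Rps28* (0.40), *Rps15* (0.32), *Rps3* (0.28), *Rps13* (0.51), *Rps25* (0.31), *Rps14* (0.24), *Rps7* (0.33), *Rps2* (0.24) and *Rps26* (0.45) also passed, with log2 fold changes in parentheses.

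Of the large subunit, *Rpl22l1*, a paralogue of *Rpl22*, had 1244, 1071 and 803 normalized counts with EREG and 787, 646.5 and 716 with EGF in Exp2 (log2 fold change 0.52 ± 0.083, edgeR adjusted p = 5.67e-07). EREG library 3 stood just above the highest EGF library. *Rpl39*, for a protein lining the exit tunnel of the nascent chain, had 2053, 1364 and 1364 with EREG and 1444, 891 and 1234 with EGF, which overlapped (0.42, adjusted p = 4.12e-05). *Rpl30* (0.44), *Rpl7* (0.37), *Rpl27a* (0.47), *Rpl34* (0.33), *Rpl26* (0.25), *Rpl5* (0.77), *Rpl35a* (0.24) and *Rpl8* (0.20) also passed. *Rpl5* had few counts, with 67.6, 37.7 and 64.5 with EREG and 39.6, 29.2 and 29.5 with EGF, and all of its windows were shared with other genes (100%).

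These calls came with high values in EREG libraries 1 and 2. With both left out, EREG library 3 stood alone against EGF in Exp2, so calls are not counted, and the median was 0.05. With 3 libraries it cannot be told which of them is unusual. Relative to the mean of the EGF libraries of Exp2, the median member stood at 0.38 in EREG library 1, 0.30 in EREG library 2 and 0.04 in EREG library 3 on the log2 scale, while 71, 71 and 46 of the 79 were above that mean. EREG library 3 lay above all EGF libraries for 21 members (26.6%, against 25.1% of all genes) and within their range for 45 (57.0%, against 49.5%). Leaving out a single library gave 9 members without EGF library 1, 12 without EREG library 1, 15 without EGF library 2, 13 without EREG library 2 and 41 without EREG library 3, all higher with EREG. *Rps21* lost its call without the replicate term (0.48) and in a fit of all 18 libraries with 6 groups (0.48), and *Rpl22l1* in that fit of all libraries (0.54). Without the replicate term 10 members passed, and for these settings no share of all genes is given.

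Tested as an interaction in edgeR, the EREG effect differed between Exp2 and Exp1 for 0 members, against 0.074% of all genes, 0.0329% upward and 0.0411% downward in Exp2. The median difference was 0.26, 30 members had an unadjusted p under 0.05, the smallest adjusted p was 0.154 (*Rplp0*), and DESeq2 called 1 member, *Rplp0* (0.49, adjusted p = 0.0946). The count was 1 without NRG1 library 1 or EREG library 2 of Exp1, 8 without EREG library 3 of Exp1 and 26 without EREG library 3 of Exp2. The lowest count with a single library left out was 0, and for these settings no share of all genes is given. Values without EREG libraries 1 and 2 of Exp2 together are not given for this difference. Over the 79 members the log2 fold changes of Exp2 and Exp1 had the same sign for 26.

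**Figure D3:**
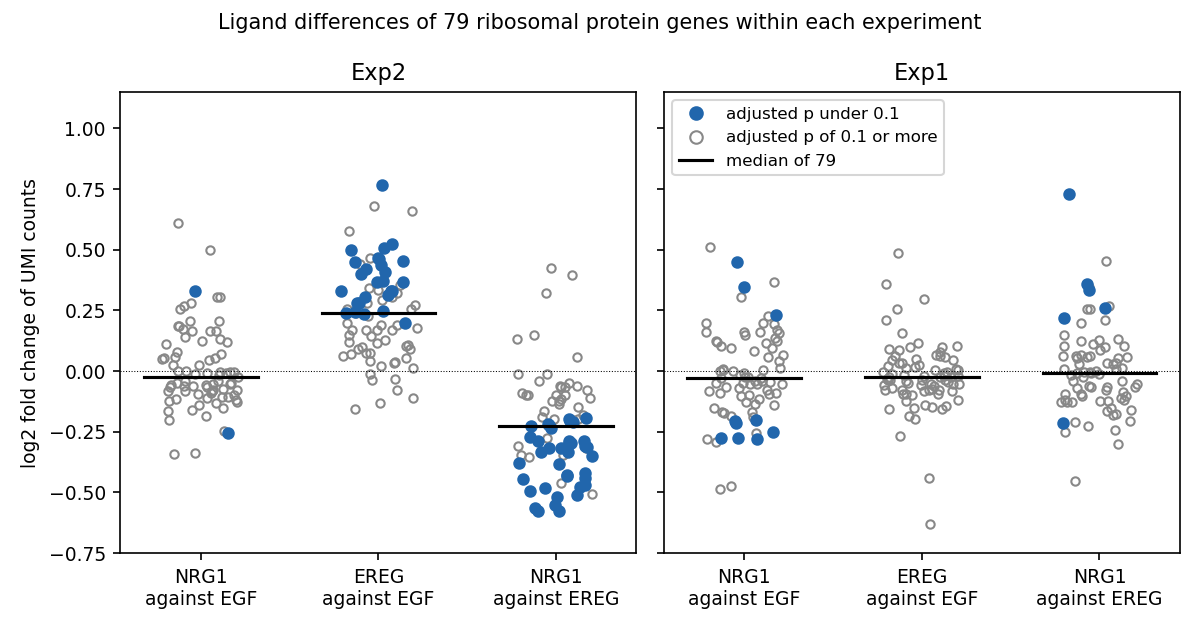
Log2 fold changes of the 79 ribosomal protein genes for NRG1 against EGF, EREG against EGF and NRG1 against EREG, within Exp2 (left) and Exp1 (right). Filled points passed at an adjusted p under 0.1, and horizontal lines are medians, which in Exp2 lie at −0.03, 0.24 and −0.23 and in Exp1 at −0.03, −0.03 and −0.01.

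Other genes of the translation machinery were counted in the same comparison, EREG against EGF in Exp2. Of ribosomal protein genes outside the symbol rule, *Fau* (0.45) and *Rack1* (0.21) were higher. *Rack1* had 10661, 9548 and 7927 normalized counts with EREG and 8186, 8242 and 7747 with EGF, so EREG library 3 was again within the EGF range. Of 19 elongation factor and other TOP mRNA genes, 5 were higher, among them the translation factor genes *Eif3e* (0.47) and *Eef1a1* (0.36), and *Pabpc1*, for the poly(A)-binding protein, was lower (−0.27). Of 26 initiation factors 1 was higher and 2 were lower (*Eif5b* −0.53, *Eif2b4* −0.71). Of 91 ribosome biogenesis factors 2 were higher, the nucleolar protein genes *Npm1* (0.36) and *Pa2g4* (0.40). Of 77 mitochondrial ribosomal protein genes 2 were higher, of 20 genes of RNA polymerase I transcription 1 was higher, and of 10 chaperones of single ribosomal proteins none passed. The median of the biogenesis factors was 0.03 and that of the mitochondrial ribosomal proteins 0.01, beside 0.24 for the members.

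Other RNAs that moved in that comparison were 3 of 9 mitochondrially encoded RNAs, all higher with EREG (*mt-Nd2* 0.39, *mt-Nd5* 0.41, *mt-Nd1* 0.29). Of 18 epithelial markers, 2 were higher and 3 lower, among them the enterocyte genes *Krt20* (−0.62) and *Fabp1* (−0.27), the Paneth cell gene *Lyz1* (−0.26) and *Epcam* (0.30). The 20 markers of other cells together took between 0.00164% and 0.00274% of UMIs in EREG libraries and between 0.00221% and 0.00242% in EGF libraries of Exp2. Of 27 proliferation genes only *Pcna* passed (−0.37). With EREG libraries 1 and 2 left out, an alternative chosen after the values were seen, EREG library 3 stood alone against EGF. Effect sizes are therefore given without calls. *Krt20* was then at −0.62, *Fau* at 0.44, *Rack1* at 0.01 (0.00778), *Eif3e* at 0.07, *Npm1* at 0.00 (−0.0031) and *mt-Nd2* at 0.21. The part of any of these in the ribosomal protein counts was not tested.

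**Figure D4:**
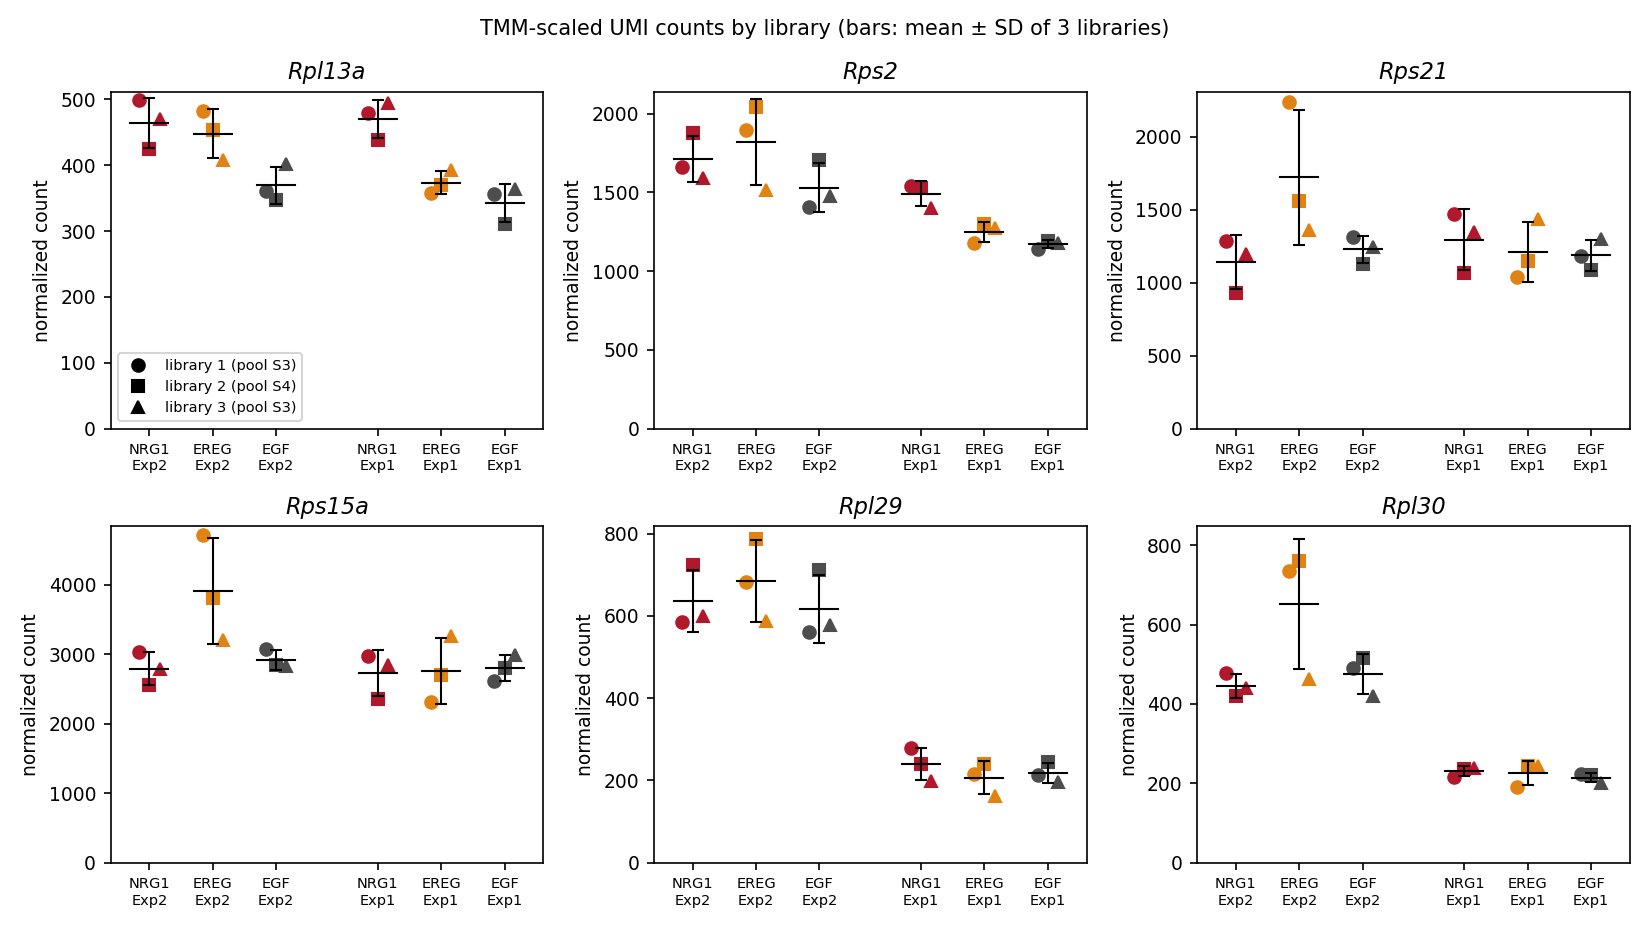
Normalized counts of *Rpl13a*, *Rps2*, *Rps21*, *Rps15a*, *Rpl29* and *Rpl30* in the 18 libraries, with the mean and SD of 3 libraries per ligand and experiment. *Rpl13a* is higher with NRG1 than with EGF in every library of both experiments, *Rps21* and *Rps15a* are highest in EREG libraries 1 and 2 of Exp2, and *Rpl29* and *Rpl30* are higher in all libraries of Exp2 than in those of Exp1.

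NRG1 and EREG were also set against each other, which uses the same NRG1 and EREG libraries as above. Over both experiments 10 members passed and all were lower with NRG1 (12.7%, against 11.3% of all genes in either direction, 6.53% higher and 4.76% lower), with a median of −0.14 beside −0.02 for all genes. Among them were *Rpl35a* (−0.25, edgeR adjusted p = 0.0223), *Rps13* (−0.34, 0.0408), *Rps28* (−0.26, 0.0426), *Rpl37* (−0.21, 0.0465), *Rps3a1* (−0.20), *Rps25* (−0.26), *Rpl30* (−0.28), *Rps20* (−0.18) and *Rplp2* (−0.19), with log2 fold changes and, for the smallest, adjusted p-values in parentheses.

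*Rpl35a* had 1413, 1546 and 1385 normalized counts with NRG1 and 1989, 1984 and 1611 with EREG in Exp2, and 1273, 1188 and 1242 with NRG1 and 1161, 1389 and 1493 with EREG in Exp1. Its groups were apart in Exp2, while in Exp1 EREG library 1 lay below every NRG1 library. *Rps13* had 119, 162 and 123 with NRG1 and 210.0, 218 and 143 with EREG in Exp2, where NRG1 library 2 lay above EREG library 3. *Rps28*, for a small protein of the small subunit, had 513, 340 (340.5) and 520.2 with NRG1 and 812, 509 and 598 with EREG in Exp2. *Rpl37* had 1045, 858 and 1112 with NRG1 and 1400.0, 1097 and 1221 with EREG in Exp2. For *Rps28* and *Rpl37*, NRG1 library 3 lay above EREG library 2, and library 2 was the lowest of both groups.

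This count moved with single libraries. It was 28 without EREG library 1 of Exp1 and 6 without NRG1 library 3 of Exp2. It was 3 without NRG1 library 1, NRG1 library 2 or EREG library 2 of Exp2, and without EREG library 1 of Exp2 it was 2, both higher with NRG1. *Rpl35a*, *Rps13*, *Rps28* and *Rpl37* all lost their calls without that library (−0.17 to −0.27), and the last 3 of them also without EREG library 2 or NRG1 library 1 of Exp2. With EREG libraries 1 and 2 of Exp2 both left out, 4 members passed and all 4 were higher with NRG1: *Rpl13a* (0.30), *Rpl36al* (0.58), *Rpl22l1* (0.28) and *Rps2* (0.20). With counts summed per ligand and experiment, or in pool S3 alone, 0 members passed by edgeR. For none of these settings is the share of all genes given, so the counts cannot be set against it.

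In Exp2, 38 members passed and all were lower with NRG1 (48.1%, against 13.5% of all genes in either direction, 8.1% higher and 5.4% lower), 18 of 32 in the small and 20 of 47 in the large subunit. Among the smallest adjusted p-values were those of *Rps21* (log2 fold change −0.57 ± 0.079, edgeR adjusted p = 1.46e-10), *Rps15a* (−0.47, 9.28e-09), *Rps15* (−0.44, 5.04e-07) and *Rpl34* (−0.44, 5.17e-07). *Rps21* had 1287, 930.3 and 1197 normalized counts with NRG1 and 2240, 1557 and 1363 with EREG, with no overlap. *Rps15* had 1742, 1814 and 1590 with NRG1 and 2832, 2472 and 1802 with EREG. *Rpl34* had 1614, 1363 and 1571 with NRG1 and 2476, 2026 and 1745 with EREG. EREG library 3 was the lowest of its group for all of these, and for *Rps15* it lay below NRG1 library 2. NRG1 libraries lay below all EREG libraries for 19 members and above for 1 (10.5% and 11.4% of all genes). Without EREG library 1, EREG library 2 or NRG1 library 2 the count was 22, 23 and 25 in that order. Without both EREG libraries, EREG library 3 stood alone and the median was −0.05 in place of −0.23.

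Beside these, *Rack1* was lower with NRG1 in Exp2 (−0.49) and so were 12 of 91 biogenesis factors, among them *Npm1* (−0.47) and the pseudouridine synthase gene *Dkc1* (−0.51), while *Ddx47*, for an RNA helicase, was higher (0.47). Of 77 mitochondrial ribosomal protein genes 14 were lower and 1 was higher. Without EREG libraries 1 and 2, only 1 EREG library was left against NRG1 in Exp2, so effect sizes are given without calls. *Rack1* was then at −0.29, *Npm1* at −0.12, *Dkc1* at −0.32 and *Ddx47* at 0.45.

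Of 18 epithelial markers 8 were higher with NRG1 than with EREG in Exp2, among them *Fabp1* (1.07), *Krt18* (0.74), *Krt8* (0.56), *Krt20* (0.56) and *Krt19* (0.52), and the stem cell gene *Olfm4* was lower (−0.65). Of 27 proliferation genes 4 were higher and 3 lower. Of 9 mitochondrially encoded RNAs 1 was higher (*mt-Co1* 0.29) and 5 were lower, among them *mt-Nd1* (−0.43) and *mt-Cytb* (−0.28), and together these RNAs took 0.570% ± 0.00674 of UMIs with NRG1 and 0.728% ± 0.0831 with EREG (SD, n = 3 each). *Malat1* took 0.171% ± 0.000242 of UMIs with NRG1 and 0.0718% ± 0.0115 with EREG (SD, n = 3 each), with no overlap. Of 7 tested markers of other cells, the macrophage gene *Cd68* was higher (2.47, edgeR adjusted p = 0.00810), with 46 counts in all 18 libraries together, and the 20 markers took between 0.00172% and 0.00191% of UMIs with NRG1 and between 0.00164% and 0.00274% with EREG. Against EREG library 3 alone, *Fabp1* was at 1.05, *Krt18* at 0.74, *Olfm4* at −0.55, *mt-Co1* at 0.49, *mt-Nd1* at −0.18, *mt-Cytb* at −0.08 and *Cd68* at 2.59. The part of any of these in the ribosomal protein counts was not tested.

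In Exp1, 6 members passed, 5 higher and 1 lower with NRG1 (7.59%, against 8.81% of all genes, 4.73% higher and 4.08% lower). *Rpl22l1* had 1098, 1024 and 1067 normalized counts with NRG1 and 603, 919 and 1006 with EREG (log2 fold change 0.36 ± 0.085, edgeR adjusted p = 0.00125). *Rpl36al* had 111, 80.2 and 96.7 with NRG1 and 42.2, 65.2 and 62.2 with EREG (0.73 ± 0.18, adjusted p = 0.00173). Both were lowest in EREG library 1 and the groups did not overlap. *Rpl13a* (0.33), *Rps2* (0.26) and *Rps27l* (0.22) were also higher and *Rps4x* was lower (−0.22). NRG1 libraries lay above all EREG libraries for 6 members and below for 1 (8.7% and 8.98% of all genes). The count was 3 without EREG library 1 (none higher) or EREG library 2, and 2 without NRG1 library 2. *Rpl22l1* lost its call without EREG library 1 (0.17) or NRG1 library 1 (0.19), and *Rpl36al* without EREG library 1 (0.44). *Rpl13a* lost its call without EREG library 1 (0.27) or NRG1 library 2 (0.34), *Rps2* without library 1 or 2 of either ligand (0.21 to 0.27), and *Rps27l* when any of 7 single libraries was left out (0.13 to 0.27). With DESeq2's size factors 5 members were higher and none lower.

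Several members have a paralogue in the table. *Rpl22* and *Rpl22l1* encode alternative forms of a large-subunit protein, and in mouse cells the Rpl22 protein is known to repress *Rpl22l1*. *Rpl22* had 2214, 1965 and 2228 normalized counts with NRG1, 2778, 2285 and 2326 with EREG and 2334, 2043 and 2350 with EGF in Exp2. For *Rpl22l1* these were 914, 756 and 803 with NRG1, 1244, 1071 and 803 with EREG and 787, 646.5 and 716 with EGF. EREG library 1 was the highest for each. *Rpl22l1* was the only member called between NRG1 and EREG in both experiments, lower with NRG1 in Exp2 (−0.32) and higher in Exp1 (0.36). *Rpl22* was called there in Exp2 alone (−0.20).

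*Rps27l*, a paralogue of *Rps27* that p53 induces in human cells, had between 1205 and 1661 normalized counts in the 18 libraries and shared 12.5% of its windows with other genes. It had 1657, 1539 and 1581 with NRG1, 1661, 1547 and 1636 with EREG and 1606, 1475 and 1524 with EGF in Exp2, where the groups overlapped. *Rps27* itself had between 4.53 and 20.7 in a library and passed in no ligand comparison. *Rpl36a* stood at 30.8 to 62.2 and *Rpl36al* at 42.2 to 111. *Rpl7l1*, a paralogue of *Rpl7* that shared 1.56% of its windows, had between 166 and 289, against 884 to 1838 for *Rpl7*. *Rpl3* had 204 to 420.3, and 84.7% of its windows were shared, while *Rpl39l* had a mean of 0.222 counts and was not tested.

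The level of ribosomal protein genes before any comparison of ligands differed between the experiments. In EGF libraries, 30 members passed in Exp2 against Exp1, 27 higher and 3 lower in Exp2. This is 38.0% of the members, beside 33.5% of all genes in either direction, 17.2% higher and 16.3% lower. The median log2 fold change was 0.16, with 65 of 79 above 0, beside −0.01 for all genes. In the small subunit 13 of 32 passed, all higher, and in the large subunit 14 of 47 were higher and 3 lower. Leaving out single libraries gave between 21 and 36.

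*Rpl29*, whose protein also binds heparin at the cell surface, differed most. It had 560.4, 712 (712.5) and 578 normalized counts in EGF libraries of Exp2 and 214, 246 and 195 in those of Exp1 (log2 fold change 1.499 ± 0.11, edgeR adjusted p = 7.09e-23). It stood between 586 (586.5) and 787 in the other Exp2 libraries and between 163 and 278 in the other Exp1 libraries, so that the experiments did not overlap under any ligand. *Rpl30*, whose protein binds its own transcript in yeast, had 491, 516 and 419 in EGF libraries of Exp2 and 223, 219.9 and 201 in those of Exp1 (1.14 ± 0.12, adjusted p = 1.48e-13). It too was higher in each Exp2 library than in any Exp1 library. *Rpl29* shared 42.4% and *Rpl30* 48.3% of their windows with other genes.

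*Rpl14* had 3211, 3691 and 3489 normalized counts in EGF libraries of Exp2 and 2109, 2075 and 1894 in those of Exp1 (log2 fold change 0.78 ± 0.089, edgeR adjusted p = 3.21e-12). *Rpl8* followed (0.61, adjusted p = 1.48e-09), with 10687, 11643 and 10789 in Exp2 and 7602, 6720 and 7353 in Exp1. For both genes the EGF libraries of the experiments were apart. *Rpl14* shared 18.4% and *Rpl8* 11.8% of their windows, and of the 23 members sharing under 25%, 13 were higher and 1 was lower in Exp2.

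The members lower in Exp2 were *Rpl5* (−0.83), *Rpl36al* (−0.49) and *Rpl7l1* (−0.38). *Rpl7l1* had 187, 212 and 192 normalized counts in EGF libraries of Exp2 and 248 (248.5), 254 and 268 in those of Exp1, with no overlap. *Rpl7l1* has its closest known yeast relative among assembly factors of the large subunit. *Rpl5*, which with *Rpl11* carries an rRNA to the ribosome and binds Mdm2, had 39.6, 29.2 and 29.5 in Exp2 and 54.6, 57.6 and 61.8 in Exp1.

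Ribosome biogenesis factors went the other way between the experiments. Of 91, 55 were lower and 2 higher in the EGF libraries of Exp2, with a median of −0.44, beside 0.16 for the ribosomal protein genes. They were led by *Nop58* (−0.86), a core protein of box C/D small nucleolar ribonucleoproteins, *Pa2g4* (−0.94), the helicase gene *Ddx21* (−0.995) and nucleolin (*Ncl*, −0.68). Of 10 chaperones of single ribosomal proteins 6 were lower and none higher, and of 20 genes of RNA polymerase I transcription 7 were lower, among them the rDNA transcription factor gene *Ubtf* (−0.94), and 3 higher. Of 26 initiation factors 10 were lower and 3 higher. Of 19 elongation factor and other TOP mRNA genes, 7 were higher, among them *Eif3f* (0.72), *Eif4a2* (1.18), *Eef1a1* (0.49) and *Eif4b* (0.54), and 1 was lower. *Rack1* was higher (0.46). Of 27 proliferation genes 12 were lower and none higher. Of 18 epithelial markers 10 were higher, among them *Krt19* (0.90) and *Cldn3* (0.90). A further 5 were lower, among them the stem cell genes *Olfm4* (−2.21) and *Lgr5* (−1.22). Of 10 mitochondrially encoded RNAs 7 were lower and 1 higher. The nuclear RNA *Malat1* took 0.0774% to 0.0844% of UMIs in EGF libraries of Exp2 and 0.0280% to 0.0404% in those of Exp1. The part of any of these in the ribosomal protein levels was not tested.

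The same lists were counted for NRG1 against EGF over both experiments. Of the biogenesis factors 1 was higher (*Ddx47* 0.51) and 2 lower (*Mdn1* −1.10, *Dkc1* −0.30). Of the initiation factors 2 were higher (*Eif2s2* 0.30, *Eif3d* 0.28) and 2 lower, and of the elongation factor and other TOP mRNA genes only *Eef1g* passed (0.23). Of 28 tested genes of mTORC1 and its targets, 2 were higher, the translation repressor gene *Eif4ebp1* (0.54) and *Mxd1* (0.81), and 2 lower, the gene of the initiation factor inhibitor *Pdcd4* (−0.42) and *Mxd4* (−0.83). *Mxd1* and *Mxd4* encode partners of Max that oppose Myc. For these mTORC1 genes only fold changes over both experiments are given. Such values can hide a difference between the experiments, so they are not evidence of the same change in each. Added up, the genes of this list took 0.195%, 0.190% and 0.196% of UMIs with NRG1 and 0.157%, 0.149% and 0.157% with EGF in Exp1. In Exp2 the shares overlapped, at 0.173%, 0.174% and 0.189% with NRG1 and 0.173%, 0.176% and 0.178% with EGF. Of 77 mitochondrial ribosomal protein genes 2 were lower, and of 10 mitochondrially encoded RNAs 3 were lower (*mt-Nd1* −0.42, *mt-Nd4* −0.38, *mt-Cytb* −0.54). The experiments differed for the mitochondrially encoded RNAs. With NRG1, 5 were lower and none higher in Exp1, while 2 were higher and none lower in Exp2. As an interaction 6 of 10 passed, all upward in Exp2. Of 18 epithelial markers 5 were higher, among them *Krt8* (0.46), *Krt19* (0.45) and *Cldn3* (0.44), and 5 lower, among them *Olfm4* (−0.54). Of 27 proliferation genes 5 were higher, among them *Aurka* (0.52), *Plk1* (0.42), *Ccnb1* (0.37) and *Tubb5* (0.29), and 2 lower. *Malat1* took 0.171% ± 0.000242 of UMIs with NRG1 and 0.0798% ± 0.00399 with EGF in Exp2, and 0.0311% ± 0.00627 with NRG1 and 0.0327% ± 0.00672 with EGF in Exp1 (SD, n = 3 each). The part of any of these in the ribosomal protein counts was not tested.

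The sequencing pools gave a difference of another kind. This comparison was chosen after values had been seen. Since library 2 is always in S4, pool and replicate number cannot be told apart. With ligand and experiment in the fit, 19 members passed between pools S4 and S3 (24.1% of the members, against 3.06% of all genes, 1.06% higher and 2% lower), 11 higher and 8 lower in S4, and the median over members was 0.04. *Rpl13* had between 464 and 813 normalized counts in S4 libraries (median 565) and between 735 and 1282 in S3 libraries (median 965), at a log2 difference of −0.69 ± 0.062 (edgeR adjusted p = 2.07e-15). *Rps4x* had between 1968 and 2718 in S4 (median 2388) and between 1323 and 1999 in S3 (median 1755), at 0.48 ± 0.055 (adjusted p = 9.55e-11). The pools overlapped a little for each. *Rps28* (−0.54), *Rpl11* (−0.68), *Rpl21* (−0.59) and *Rpl39* (−0.44) were also lower in S4, and *Rps7* (0.45), *Rpl3* (0.35) and *Rpl10a* (0.54) higher. Of the 19, 6 were among the 23 members that shared under 25% of their windows and 13 among the 56 that shared more.

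The copies of ribosomal protein genes differed much more between the pools. All 5 tested rows named as pseudogenes of members were lower in S4. *Rpl10-ps3* had between 494 and 678 (677.5) normalized counts in S4 and between 1165 and 1890 in S3, at a log2 difference of −1.28 ± 0.064 (edgeR adjusted p = 9.87e-31). *Gm2000* had between 867 and 1031 in S4 and between 1963 and 2642 in S3 (−1.26). *Rpl27-ps3* (−1.69), *Rps27rt* (−1.35), *Rpl13a-ps1* (−1.25), *Rpl9-ps6* (−1.09) and *Rpl36a-ps1* (−1.08) went the same way. Added up, the pseudogene rows took between 0.0467% and 0.0598% of UMIs in S4 and between 0.113% and 0.167% in S3, with no overlap, while the members took a median of 8.09% in S4 and 8.16% (8.155) in S3. *Rack1* (0.00) and *Fau* (0.14) did not pass. The sources used here do not give what differed between the pools, and each ligand and experiment has libraries of both pools.

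**Figure D5:**
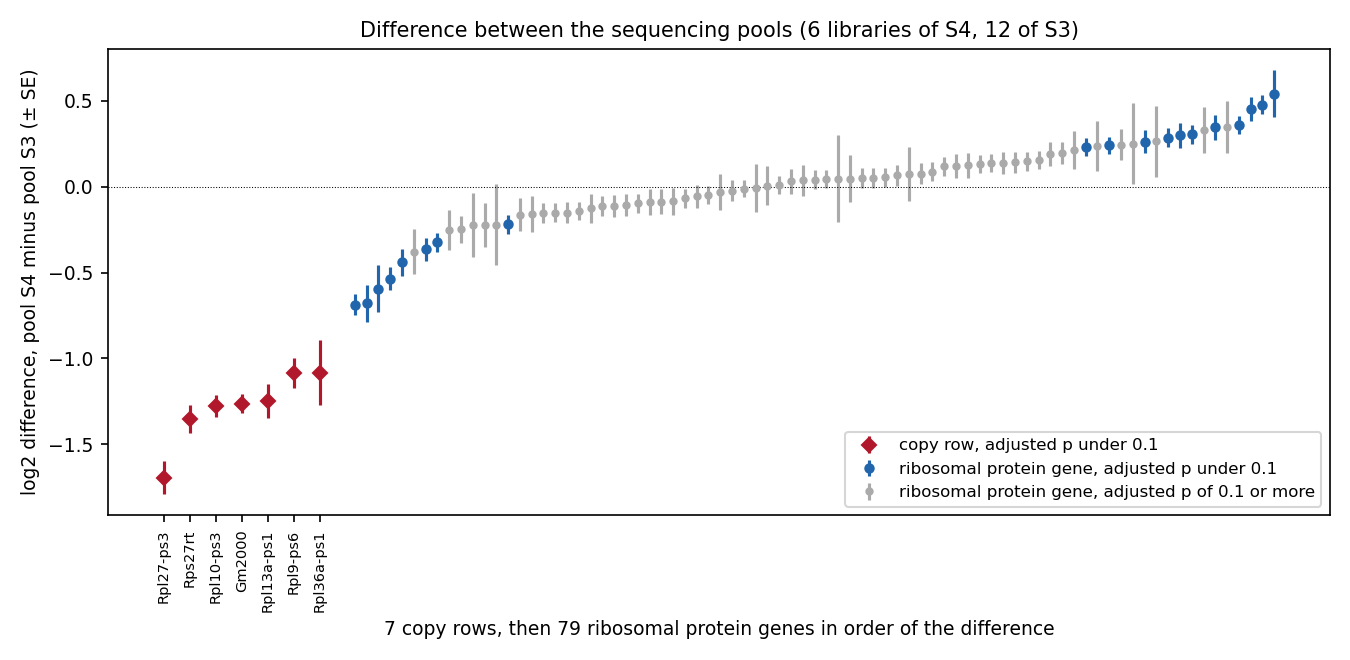
Log2 difference between pools S4 and S3 (± SE) for 7 copy rows and for the 79 ribosomal protein genes in order of the difference. All 7 copy rows lie between −1.69 and −1.08, below every ribosomal protein gene, of which the lowest is *Rpl13* at −0.69.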

How the data were processed

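RNA for 18 organoid libraries was copied with oligo-dT primers that carry a library barcode and a unique molecular identifier, so that each molecule was counted once near its 3′ end. Per the labels and the study's methods, the authors aligned reads to GRCm38 with STAR (version 2.7.8a) and deposited raw UMI counts per gene, with no normalization. No source used here names the annotation release. Groups came from the deposited sample sheet, which assigns each column a ligand, an experiment and a replicate number. 6 counts of reporter rows were left out of 29328145 UMIs, and 31011 gene IDs matched an annotation.

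Genes were tested where their counts summed to 5 or more and their normalized counts averaged 1 or more (12159 over 18 libraries) with edgeR 4.0.16 in R 4.3.3 (TMM, robust quasi-likelihood test, Benjamini-Hochberg adjustment over all tested genes, threshold 0.1). The model held ligand, experiment and replicate number (12 residual degrees of freedom), ligand and replicate number within an experiment (4), or 6 groups and replicate number for differences between experiments (10). SE is that of the log2 fold change. The scripts were tested on simulated data. Shared sequence was searched in GENCODE M21 transcripts. DESeq2 1.42.0, other scaling factors, filters, replicate terms, subsets of libraries and each library left out were tried as alternatives.

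Per-library values were given for the members called between NRG1 and EGF, the 5 with the smallest adjusted p in each other comparison, the highest and lowest by level, and paralogue pairs. *Rplp0*, *Rpl5*, *Rack1*, the copy rows and the leave-out of EREG libraries 1 and 2 of Exp2 were chosen after their values were seen. The members and gene lists were chosen with earlier results of these data known. No pair of libraries of a group differed by less than sampling noise (chi-square per degree of freedom 1.52 to 4.14 over 18 pairs). The values of some genes are not reported here.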

Additional observations from a re-analysis of the deposited data

Results flagged for a closer look

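*Rpl36al*, a paralogue of *Rpl36a*, had values with EREG on opposite sides of those with EGF in the experiments. It had 101, 69.7 and 71.5 normalized counts with EREG and 61.5, 62.7 and 64.6 with EGF in Exp2 (log2 fold change 0.34). In Exp1 it had 42.2, 65.2 and 62.2 with EREG and 106 (106.5), 65.6 and 95.2 with EGF (−0.63). All EREG libraries lay above all EGF libraries in Exp2 and below them in Exp1, and the change passed in neither (edgeR adjusted p = 0.485 in Exp2 and 0.406 in Exp1). Without EREG libraries 1 and 2 it was 0.11 in Exp2, and without EREG library 1 it was −0.32 in Exp1, alternatives chosen after the values were seen. The difference between the experiments was 0.97 on the log2 scale and did not pass (edgeR adjusted p = 0.166). In 69 groups of 6 libraries, 3 from each experiment, over 22 named members and the summed share of UMIs, 0 held a single library far from the rest. EREG libraries 1 and 2 of Exp2, both high, can hide each other in this check. A shift between the experiments also widens the range, so it says little about those libraries.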

How the results depend on the processing

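Counts of members past the threshold moved by over 1.5 times under these settings. DESeq2 gave 5 for NRG1 against EGF in Exp1, 3 for NRG1 against EREG in Exp1, 1 for NRG1 against EGF in Exp2 and 1 for the EREG difference between experiments. Without the replicate block the counts were 3 for NRG1 against EREG, 10 for EREG against EGF in Exp2, 21 for NRG1 against EREG in Exp2, 2 for NRG1 against EGF and 1 for NRG1 against EREG in Exp1, and 1 for NRG1 against EGF in Exp2. With 6 replicate blocks within experiments they were 11 for the EREG and 1 for the NRG1 difference between experiments. Same-numbered libraries deviated together (r over 0.1) in 28 of 45 pairs, with a median r of 0.16, beside −0.12 for libraries of different numbers. Deviations were taken from the mean of each group, so those of a group cancel out. A positive r for same numbers then brings a negative r for different numbers, and the −0.12 is not a separate result. Library 2 is always in pool S4, so pairing and pool cannot be told apart by that measure. The block was kept because the study's design holds it. With no filter beyond 1 count, 17 passed for NRG1 against EREG and 1 for EREG against EGF. A fit of all libraries with 6 groups gave 5 for NRG1 against EGF and 3 for NRG1 against EREG in Exp1, and 14 for EREG against EGF in Exp2. Only the 2 ligands compared gave 7 for NRG1 against EGF and 4 for NRG1 against EREG. For the same comparisons, pool S3 alone gave 1 and 0, pool S4 alone 0 and 3, and summed counts 1 and 0. With EREG libraries 1 and 2 of Exp2 left out together, chosen after seeing the data, edgeR gave 7 for NRG1 against EGF. It gave 4 for NRG1 against EREG and 8 for NRG1 against EGF in Exp2. EREG comparisons within Exp2 then rested on EREG library 3 alone, and no count is given for them. The share of all genes that passed is not given for these settings or with libraries left out, so these counts cannot be set against it. The causes were not tested.

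Leaving out 1 library at a time gave 2 to 5 for NRG1 against EGF, 0 to 6 for EREG against EGF and 2 to 28 for NRG1 against EREG. In Exp2 it gave 0 to 4 for NRG1 against EGF, 9 to 41 for EREG against EGF and 22 to 44 for NRG1 against EREG. In Exp1 it gave 3 to 12, 0 to 0 and 2 to 6 for the same comparisons. The differences between experiments gave 0 to 1 for NRG1 and 0 to 26 for EREG, EGF libraries of Exp2 against Exp1 21 to 36, and the pools 18 to 25. No named member changed sign under any alternative. With 3 libraries a group and 1 mouse an experiment, members under 100 counts were tested with little precision.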
